A study of Mus musculus with 6 samples.

Results

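Gene deserts are long stretches of chromosome without protein-coding genes. The regions described here are places in mouse retinal chromatin, inside such deserts, where a BMAL1 antibody gave a called peak in the library Bmal1 CKO 2 and in the library Control 1 and in no other library of the study. A region was taken when a Control 1 peak overlapped a Bmal1 CKO 2 peak by at least 1 bp, overlapped no peak of the other 4 lists, and had its summit outside and at least 50 kb from every protein-coding gene of the mm10 annotation. The regions were thus chosen by the peak calls of these libraries, and their presence in both is no finding. The rule found 17177 regions among the 179475 Control 1 peaks, and the 6 lists together held 320474 peaks. They were 23.9% of the 71878 shared regions, which meet the same rule on overlap at any distance from genes. Another 6 shared regions on chromosome M were left out.

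The study made BMAL1 ChIP-seq libraries (sequenced DNA that a rabbit antibody against BMAL1 pulled down) from retinas of C57BL/6 mice. The groups were Bmal1 CKO, mice with a conditional knockout of Bmal1 (3 libraries), and Control, wild-type mice (3 libraries). All pups were weaned at P20 (postnatal day 20) and none was treated. The labels do not give the promoter or cells in which the knockout acts, the age, sex or time of day at collection, or whether a library pools animals. Bmal1 CKO 2 and Control 1 are the only libraries with long lists (138254 and 179475 peaks). The other 4 hold 372 to 1444, so 1 library stands for each genotype in every value of the shared regions and nothing about them can be tested between genotypes. List names carry other numbers than the sample titles, so each list was assigned to its library by the series record. A peak list holds no gene expression and cannot check the labelled tissue.

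BMAL1 is a transcription factor of the circadian clock. It binds DNA as a partner of CLOCK, mostly at E-boxes, of which CACGTG is the best known form, and drives the Period and Cryptochrome genes, whose proteins then repress it. Deserts next to developmental genes are known to hold distant enhancers that act over long ranges, while other deserts hold few known elements. They also hold long non-coding RNAs, microRNA genes, pseudogenes (decayed copies of genes) and, at a few loci, the gene segments that lymphocytes join into antigen receptors.

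A few of the regions lie on annotated promoters of non-coding RNA genes, and these are shown because they are the desert regions whose DNA the sequences used here cover. Each window runs from 250 bases before to 50 bases after a gene's start, 300 bases in all, 5′ to 3′ on the strand of the gene, from RefSeq on GRCm38.p6, whose coordinates are those of mm10. The first 3 belong to the regions with the highest Control 1 fold whose summit lies in such a window. They are 4930442J19Rik (chr2:151301789-151302088, plus strand), LOC115487949 (chr12:21543376-21543675, plus strand) and Gm41007 (chr13:78316080-78316379, plus strand), and they hold no CACGTG. The next 3 have the highest Control 1 fold among windows that hold both the summit and CACGTG. They are Firre (chrX:50635272-50635571, minus strand), an RNA known to contact several chromosomes in the nucleus, Jpx (chrX:103493308-103493607, plus strand), known as an activator of Xist, and Gm46398 (chr13:103591310-103591609, minus strand). Capitals mark CACGTG.
4930442J19Rik: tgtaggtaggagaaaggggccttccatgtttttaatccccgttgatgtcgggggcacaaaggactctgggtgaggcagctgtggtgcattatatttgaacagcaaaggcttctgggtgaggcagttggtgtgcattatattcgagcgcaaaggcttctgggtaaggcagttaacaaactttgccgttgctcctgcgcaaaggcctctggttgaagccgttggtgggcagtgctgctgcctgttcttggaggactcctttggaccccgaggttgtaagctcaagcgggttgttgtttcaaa
LOC115487949: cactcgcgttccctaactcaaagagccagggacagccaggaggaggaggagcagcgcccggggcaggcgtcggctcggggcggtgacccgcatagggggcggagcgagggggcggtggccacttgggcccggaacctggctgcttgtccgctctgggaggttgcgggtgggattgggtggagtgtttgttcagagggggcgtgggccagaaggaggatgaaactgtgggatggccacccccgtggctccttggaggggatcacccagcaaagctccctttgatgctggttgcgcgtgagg
Gm41007: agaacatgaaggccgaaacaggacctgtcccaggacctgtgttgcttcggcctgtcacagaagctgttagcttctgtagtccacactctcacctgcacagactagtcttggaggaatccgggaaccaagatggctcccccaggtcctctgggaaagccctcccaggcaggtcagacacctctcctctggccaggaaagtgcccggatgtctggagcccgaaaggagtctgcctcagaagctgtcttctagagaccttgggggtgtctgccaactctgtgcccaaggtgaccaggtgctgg
Firre: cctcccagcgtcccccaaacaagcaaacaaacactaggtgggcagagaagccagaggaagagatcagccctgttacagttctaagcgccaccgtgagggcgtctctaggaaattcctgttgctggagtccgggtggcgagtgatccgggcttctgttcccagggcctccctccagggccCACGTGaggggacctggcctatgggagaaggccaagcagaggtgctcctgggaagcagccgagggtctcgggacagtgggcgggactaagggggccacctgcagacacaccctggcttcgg
Jpx: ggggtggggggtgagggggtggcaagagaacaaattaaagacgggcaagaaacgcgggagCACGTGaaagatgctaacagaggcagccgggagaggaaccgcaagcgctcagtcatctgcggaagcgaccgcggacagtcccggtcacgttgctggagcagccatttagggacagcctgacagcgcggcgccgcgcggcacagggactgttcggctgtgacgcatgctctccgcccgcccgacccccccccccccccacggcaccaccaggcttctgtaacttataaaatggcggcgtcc
Gm46398: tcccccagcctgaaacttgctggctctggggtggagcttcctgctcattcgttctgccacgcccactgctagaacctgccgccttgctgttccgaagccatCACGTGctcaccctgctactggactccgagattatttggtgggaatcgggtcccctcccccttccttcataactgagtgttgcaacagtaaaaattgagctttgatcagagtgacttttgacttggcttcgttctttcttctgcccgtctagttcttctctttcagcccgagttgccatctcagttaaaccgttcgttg

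The last set holds the mature microRNAs of the hairpins that a region overlapped, where RefSeq lists them. Capitals mark the seed, bases 2 to 8, with which a microRNA recognises its targets, and no seed is shared between the 3.
mmu-miR-137-3p: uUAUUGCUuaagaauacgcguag
mmu-miR-137-5p: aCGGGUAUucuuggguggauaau
mmu-miR-8099: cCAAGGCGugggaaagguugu

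In deserts, 40.1% of Control 1 peaks met the rule on overlap (17177 of 42785), against 40% of Control 1 peaks outside deserts (54701 of 136680) and 40.1% of all. The share in deserts thus equalled the background, and the overlap itself does not set deserts apart. Among the other positions it was 38.3% up to 50 kb outside genes, 35.0% in gene bodies and 64.0% within 1 kb of gene ends.

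Shared regions were sparse in deserts relative to the rest of the chromosomes. The 2971 deserts covered 980 Mb of the 2662 Mb between the first and the last summit of each chromosome, or 36.8% of that length, and held 17.5 shared regions per Mb. All other sequence held 32.5 per Mb, a ratio of 0.539 (95% interval 0.530 to 0.548, for counting error only). The whole lists were sparse in deserts as well. All Control 1 peaks stood at 43.7 per Mb in deserts and 81.3 elsewhere, and those of Bmal1 CKO 2 at 36.5 and 60.9. The sparsity is thus not particular to the shared regions. Deserts stood below each kind of other position, which held 27.0 per Mb up to 50 kb outside genes, 26.4 in gene bodies and 152.5 within 1 kb of gene ends. The ratio lay between 0.513 and 0.631 on the 19 autosomes, 0.463 on chromosome X and 0.251 on chromosome Y. Autosomal deserts held 19.9 shared regions per Mb, with chromosome 8 lowest at 17.7 and chromosome 13 highest at 24.1, and the X held 6.22. The 65.2 Mb of deserts on the Y held 18 regions. Each list was also thin on the X: desert peaks of Bmal1 CKO 2 numbered 12.5 per Mb on the X, against 37.3 to 49.7 on the autosomes, and those of Control 1 numbered 19.3 per Mb on the X, against 44.2 to 59.0. The part that unassembled or repeated sequence plays in these densities was not tested.

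Density was lower farther from genes. On the autosomes it was 25.9 regions per Mb (95% counting interval 25.2 to 26.7) at 50 to 100 kb from the nearest protein-coding gene, 22.6 at 100 to 200 kb, 18.1 at 200 to 500 kb, 14.5 at 500 to 1000 kb and 12.6 (11.8 to 13.5) beyond that. The intervals of neighbouring distance classes did not overlap. The median region lay 172 kb from a gene. The farthest lay 2.25 Mb from Celf4 on chromosome 18, with folds of 3.22 in Bmal1 CKO 2 and 3.81 in Control 1. Fold medians did not follow density. They were 3.11 in Bmal1 CKO 2 and 3.82 in Control 1 at 50 to 100 kb, and 3.22 and 4.18 in the same libraries beyond 1000 kb. The 5 regions just inside the 50 kb limit, 50010 to 50048 bp from genes, had folds of 2.82 to 4.10 in Bmal1 CKO 2 and 3.14 to 4.27 in Control 1. The 5 shared regions just outside, 49970 to 49999 bp from genes, had 2.67 to 3.66 in Bmal1 CKO 2 and 3.16 to 4.93 in Control 1.

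**Figure D1:**
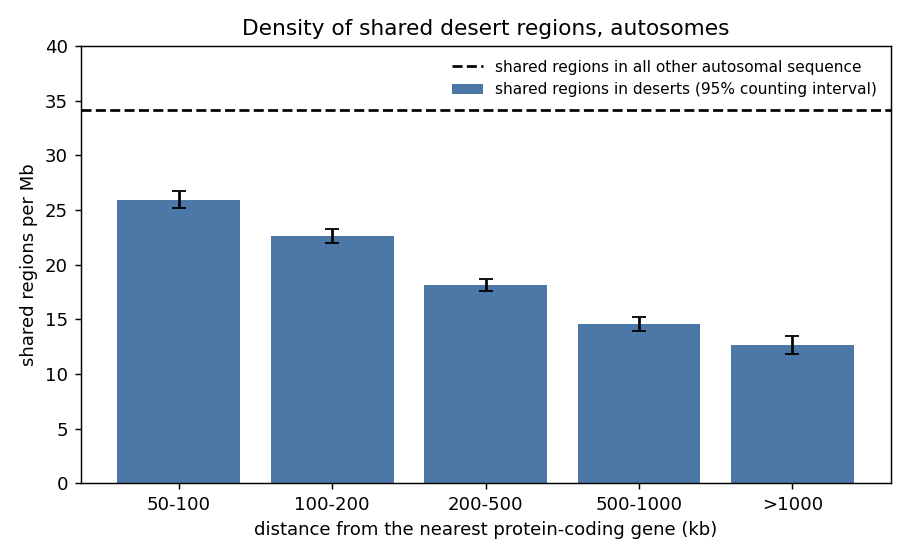
Shared desert regions per Mb on the autosomes (vertical axis) by distance of the summit from the nearest protein-coding gene in kb (horizontal axis). Bars give the density with its 95% Poisson counting interval and the dashed line the 34.2 shared regions per Mb of all other autosomal sequence. The bars stand at 25.9 per Mb nearest to genes and at 12.6 farthest from them, all below the line.

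The same order held for the length of a desert. Length and distance from genes are tied, since places far from genes exist only in long deserts, so this is no separate result. Neither order is given here for all peaks of each long list, so neither can be called particular to the shared regions. Autosomal deserts shorter than 0.1 Mb held 31.6 regions per Mb, those of 0.5 to 1 Mb held 20.2, and the 68 deserts over 2 Mb held 14.3. Every autosomal desert of 0.5 Mb or more held at least 1 region, and 828 deserts of all lengths and chromosomes held none. Among the 213 autosomal deserts of at least 1 Mb the lowest density was 4.33, the median 15.0 and the highest 49.6 per Mb.

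The regions were low and narrow peaks, the fold being the summit's enrichment over nearby background that the authors deposited for each library. In Bmal1 CKO 2 the fold ran from 1.61 over a median of 3.22 to 11.0, and in Control 1 from 1.58 over 4.04 to 11.9. The quartiles were 2.91 and 3.51 in Bmal1 CKO 2 and 3.49 and 4.71 in Control 1. Median widths were 285 bp in Bmal1 CKO 2 and 302 bp in Control 1. Widths at gene ends were larger, 467 bp and 600 bp in the same libraries, while fold medians there were 3.07 and 4.08. Widths were 285 and 304 bp within gene bodies, and 291 and 309 bp up to 50 kb outside them, close to those in deserts. Fold medians of shared regions were 2.99 and 3.75 within gene bodies and 3.07 and 3.81 up to 50 kb outside them. Both pairs lay below those in deserts, so low folds were not particular to deserts.

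Behind these folds stand few fragments. The fold and p-value of each peak were solved for the number of DNA fragments stacked at its summit and the background expected there, which worked for 100% of peaks in both lists. Median stacks were 22 fragments in Bmal1 CKO 2 and 18 in Control 1. Shared regions elsewhere had larger median stacks in the same libraries. They were 25 and 20 both up to 50 kb outside genes and in gene bodies, and 33 and 31 at gene ends. The higher fold medians in deserts than in gene bodies thus do not stand for more fragments. The lowest repeated background, taken as the level across the genome, was 5.83 fragments in Bmal1 CKO 2 and 3.46 in Control 1. By this measure the knockout library appeared the deeper of the pair, but read totals and processing parameters are not given. More stacked fragments in Bmal1 CKO 2 were found at 79.4% of regions, and 86.7% had the higher fold in Control 1 (88.3% of the shared regions outside deserts). Apparent depth differs between the libraries along with genotype, its part in these directions was not tested, and no difference of fold between the libraries is drawn here. A background at the lowest level was found at 64.2% of desert regions in Bmal1 CKO 2 and 67.2% in Control 1, against 25.5% and 29.4% of the other shared regions in the same libraries.

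The rule asks for overlapping peaks, which limits how far apart their summits can lie, so their distance is a description. The median distance between the summit of the Bmal1 CKO 2 peak and that of Control 1 was 62 bp, and 67.3% of regions had them within 100 bp, against 60.9% of the other shared regions. In 107 regions the summits lay more than 500 bp apart. Across the 17177 regions the folds of the libraries correlated with a Pearson r of 0.461 and a Spearman rho of 0.374, given as a description across regions that share 2 libraries and their depth. A fold of 5 or more was reached by 258 regions in Bmal1 CKO 2, by 2773 in Control 1 and by 196 in both.

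**Figure D2:**
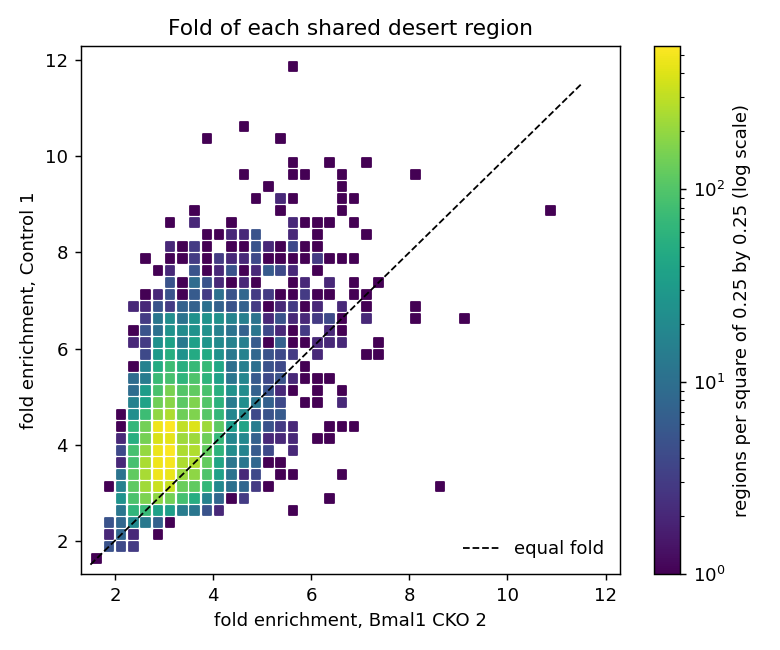
Fold enrichment of each of the 17177 shared desert regions in Bmal1 CKO 2 (horizontal axis) and Control 1 (vertical axis), as the number of regions per square of 0.25 by 0.25 (color, log scale). The dashed line marks equal folds. Most regions sit near the medians of 3.22 and 4.04, above the line, and few reach 5 in both.

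The strongest regions of Control 1 lay near genes of several kinds. The highest, at chr13:79330626-79331108, is 1132 kb from Nr2f1, which encodes an orphan nuclear receptor of eye and brain development, in the desert between Nr2f1 and Arrdc3. Its fold was 5.71 in Bmal1 CKO 2, from 38 stacked fragments, and 11.9 in Control 1, from 52. The summits lay 7 bp apart. The region nearest Nxph1, a secreted ligand of neurexins, had folds of 5.42 in Bmal1 CKO 2 and 10.3 in Control 1. A region in the desert between AW209491 and Gli3, a transcription factor of hedgehog signalling, had 7.17 in Bmal1 CKO 2 and 9.80 in Control 1, and is among the 10 highest in each library. So is one near Defb33, a beta-defensin gene, with 8.07 in Bmal1 CKO 2 and 9.71 in Control 1. A region 203 kb from Asmt, which encodes the last enzyme of melatonin synthesis, had 6.29 in Bmal1 CKO 2 and 9.79 in Control 1, and lies at the end of chromosome X. The rest of these 10 were nearest to Gm8882, Vmn2r36, Zfp980, Epm2a and Lrfn5, with folds of 3.95 to 6.73 in Bmal1 CKO 2 and 9.64 to 10.7 in Control 1.

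The strongest regions of Bmal1 CKO 2 share with these 10 the regions near AW209491 and Defb33. The highest, 831 kb from Tyrp1, a melanin synthesis gene of pigment cells, had a fold of 11.0 in Bmal1 CKO 2 and 8.97 in Control 1, from 74 and 39 stacked fragments in the same libraries. The region near Nell1, a secreted protein gene, had 9.07 in Bmal1 CKO 2 and 6.73 in Control 1. The peak near Gdf6, a bone morphogenetic protein gene of eye development, had 8.61 in Bmal1 CKO 2 and 3.09 in Control 1. There the peak of Bmal1 CKO 2 is 1158 bp wide and its summit lies 773 bp from that of Control 1, so the values belong to different places of 1 wide peak. A pair of regions near Htr7, a serotonin receptor gene, shares 1 Bmal1 CKO 2 peak with a fold of 8.14 and had 6.86 and 6.62 in Control 1. The region 763 kb from Arrdc4 lies in the desert between Arrdc4 and Nr2f2, the paralog of Nr2f1, with 7.46 in Bmal1 CKO 2 and 5.83 in Control 1. Those nearest Iftap and Dad1 had 7.46 and 7.32 in Bmal1 CKO 2 and 6.05 and 7.40 in Control 1.

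The deserts that held most regions fell into a few kinds. Counts are set beside the number that the mean of autosomal deserts, 19.9 per Mb, would place in a desert of that length. That mean takes no account of the fall of density with desert length, here or below. The desert between Gm36448 and Dad1 on chromosome 14 (chr14:52591356-54185485) held 79 regions against 31.7, or 49.6 per Mb. It contains the T-cell receptor alpha locus, with 167 antigen receptor segments. Its Control 1 peaks numbered 153, of which 79 were shared. The desert between Adam6a and Zfp386 on chromosome 12, in the immunoglobulin heavy chain locus with 177 segments, held 58 against 47.7, among 100 Control 1 peaks. Over all deserts, 17177 of 42785 Control 1 peaks were shared (40.1%). All 7 deserts with such segments together held 231 regions, 29.6 per Mb, against 19.8 per Mb in all other autosomal deserts.

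Of the other 7 leading deserts, 5 held fewer regions than that mean would place there. All 5 are longer than 2 Mb and held 14.1 to 17.8 per Mb, against 14.3 over all autosomal deserts longer than 2 Mb. The shortfall is thus against the mean over all lengths. The desert between Celf4, an RNA-binding protein gene of neurons, and Pik3c3 held 70 against 87.7. The one between Lrrc4c, a synaptic adhesion gene, and Iftap held 68 against 76.1. The one between the protocadherin genes Pcdh20 and Pcdh9, at 4.44 Mb the longest of all, held 68 against 88.3. The deserts between Slc39a10 and Tmeff2 and between Cntnap5b and the cadherin gene Cdh20 held 59 each, against 77.0 and 83.1. The desert between Nmbr, a neuropeptide receptor gene, and Cited2, a transcriptional coregulator gene, held 60 against 56.7. The desert between Ythdf3, a reader of methylated RNA, and Cypt12 was denser, with 58 against 32.4. All Control 1 peaks in each of these 7 deserts, shared or not, numbered 93 to 139. Medians of the folds in these 9 deserts lay at 3.22 to 3.51 in Bmal1 CKO 2 and 4.04 to 4.48 in Control 1, highest in each library in the desert of the T-cell receptor.

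**Figure D3:**
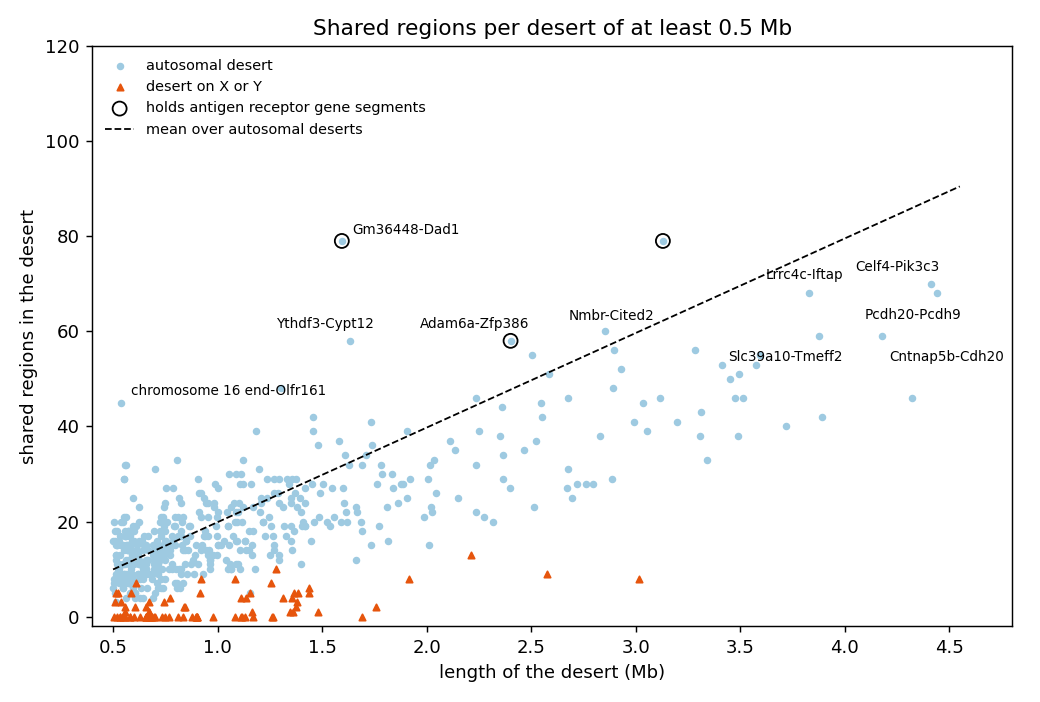
Number of shared regions (vertical axis) against length in Mb (horizontal axis) for each desert of at least 0.5 Mb, on autosomes (circles) and on X or Y (triangles). Ringed deserts hold antigen receptor gene segments, the dashed line is the mean density of autosomal deserts, 19.9 per Mb, and 9 of the deserts with most regions and the densest one are named by their flanking genes. The desert from the chromosome 16 end to Olfr161 (45 regions) and that between Gm36448 and Dad1 (79) stand far above the line.

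**Figure D4:**
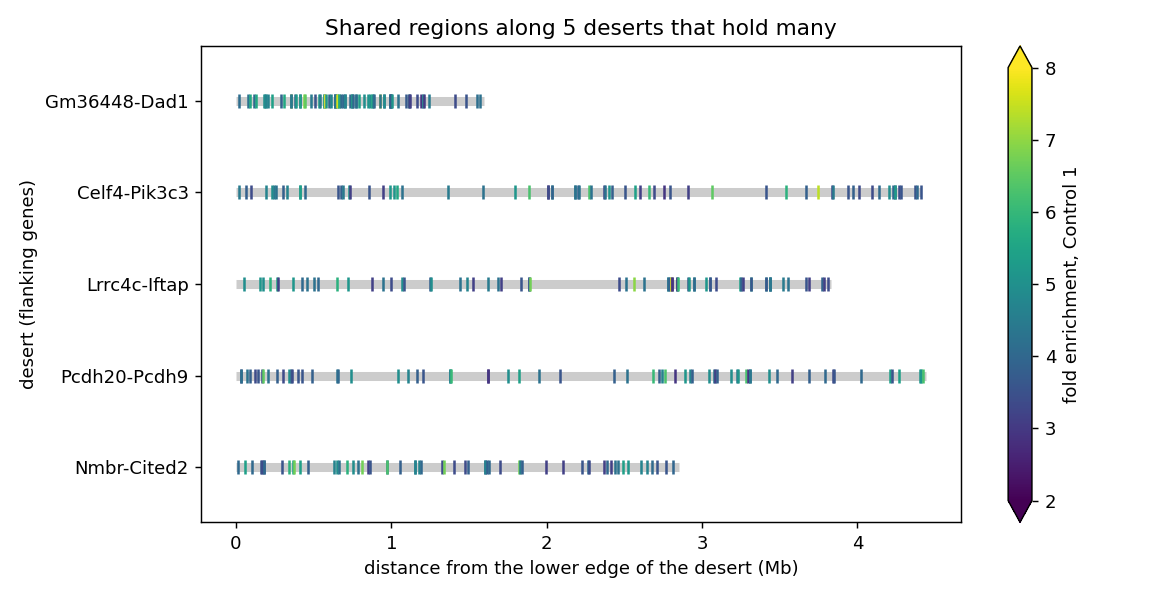
Position of every shared region along 5 deserts that are among those with most of them, as distance from the lower edge of the desert in Mb (horizontal axis), with 1 mark per region colored by its Control 1 fold (values under 2 or over 8 take the end colors). Grey bars show the length of each desert. Regions lie along the whole of each desert, and those of Gm36448-Dad1 are the most tightly packed.

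By density, among deserts of at least 0.5 Mb with 10 or more regions, the highest was the stretch between the lower end of chromosome 16 and the olfactory receptor gene Olfr161, with 45 regions in 0.536 Mb, or 84.0 per Mb (95% counting interval 61.3 to 112). It had 67 Control 1 peaks in all, of which these 45 were shared. Next came the deserts between Gm46305 and Gm10476 (57.7 per Mb), Gm38656 and Scgb2a2 (57.1), and Gm38538 and Gm40862 (52.7). The desert between Rasgef1b and Vamp9 held 52.4 per Mb and overlaps the long non-coding RNA gene A930011G23Rik, which held 19 regions, more than any other such gene. Then followed Gm36448 to Dad1, Lrrc3b to Oxsm (44.3), BC048507 to Mtrr (41.9), Meis1 to Spred2 (41.0) and Atp5g3 to Lnpk (39.8). Meis1 encodes a homeodomain factor that acts in eye development. Deserts among clustered Gm and olfactory receptor genes can hold near-identical copies of sequence, and how reads with several matches were placed is not given in the sources used here, so counts there are uncertain.

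The sparse end was of another kind. The 8 deserts of at least 1 Mb that held no region were all on chromosome Y, and the longest of them, 1.69 Mb between Gm20897 and Gm21865, had no peak in Bmal1 CKO 2 and none in Control 1. On the autosomes, which were looked at apart after the values were seen, the lowest were Slco6d1 to Cntnap5b (5 regions, 4.33 per Mb), Gm6749 to Grm7 (7.22), Tmprss15 to Ncam2 (7.46), Stpg2 to Pdha2 (7.86) and Sqor to Sema6d (8.47). Their upper genes include Cntnap5b and Ncam2, adhesion genes, Grm7, a glutamate receptor gene, and Sema6d, a guidance gene. These deserts were not without peaks: the first had 11 peaks of Bmal1 CKO 2 and 14 of Control 1, of which 5 were shared. The longest autosomal desert with no region, 497 kb between Dbpht2 and Kcnh5, had 17 peaks in Bmal1 CKO 2 and 11 in Control 1.

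Many transcription factor genes of the retina were at the edge of a desert. Of 64 transcription factor genes of retinal development, 50 flank a desert (78.1%), against 21.6% of all 21887 protein-coding genes (4735). Their deserts held 918 regions, 21.4 per Mb. Over the 59 autosomal deserts of at least 100 kb among them the median was 21.4 per Mb, against 20.4 over all 1388 such deserts. Among their autosomal deserts of at least 1 Mb the median was 18.4 per Mb (12 deserts), against 15.0 over all 213. The most regions flanked Zeb2, a zinc finger factor of neural development (55), Nr2f1 (51) and Meis1 (50), and per Mb these were 15.3, 19.7 and 30.6.

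The genes of the clock, of thyroid hormone and of cones flank few deserts, of unlike length, so a difference in density between these lists cannot be read. Over all autosomal deserts the density was 31.6 per Mb below 0.1 Mb of length and 26.5 at 0.1 to 0.2 Mb. It was 24.4 at 0.2 to 0.5 Mb, 20.2 at 0.5 to 1 Mb and 16.9 at 1 to 2 Mb. The desert of Rorb is 1.16 Mb long and that of Sall3 1.31 Mb, while the 11 deserts of the thyroid hormone genes span 1.81 Mb in all. Of 23 clock genes 8 flank a desert, with 30 regions at 13.9 per Mb, led by Rorb, a nuclear receptor gene of photoreceptors and other neurons (13 regions, where the autosomal mean of 19.9 per Mb gives 23.1), Rora, its paralog (8 against 11.0), and Arntl, which is Bmal1 itself (5 against 2.41). Of 15 thyroid hormone genes 7 flank a desert, with 45 regions at 24.9 per Mb. These include Thrb, the thyroid hormone receptor gene required for M cones, with 19 regions against 10.8, Dio3, which encodes an enzyme that inactivates the hormone, with 18 against 12.7, and Dio2, which encodes one that activates it, with 5 against 8.93. Of 16 cone genes 5 flank a desert, with 68 regions at 33.7 per Mb, of which Sall3, a zinc finger factor of cones and horizontal cells, has 48 against 25.96, Thrb its 19 and Cngb3, a subunit of the cone channel, 1 against 1.16.

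Larger gene families were counted in the same way. The numbers set against their counts come from the autosomal mean of 19.9 per Mb, whatever the desert length. Autosomal deserts over 2 Mb held 14.3 per Mb, those of 0.2 to 0.5 Mb held 24.4 and those of 0.1 to 0.2 Mb held 26.5. Of 197 cell adhesion genes 86 flank a desert (43.7%), with 2217 regions at 13.9 per Mb. Their autosomal deserts of at least 1 Mb had a median of 13.2 per Mb (52 deserts), against 15.0 over all. The most regions flanked Pcdh7 (104 against 141), Lrrc4c (100 against 112) and Pcdh9 (96 against 126), all adhesion genes of neurons. Of 233 genes of ion channels and transmitter receptors 90 flank a desert (38.6%), with 819 regions at 15.9 per Mb, led by the glutamate receptor gene Grik2 (68 against 79.2) and the potassium channel genes Kcnt2 (48 against 57.4) and Kcnv1 (40 against 51.2). Of 1513 chemosensory receptor genes 109 flank a desert (7.20%), with 229 regions at 23.3 per Mb. They were led by Olfr161 (45 against 10.9), Tas2r134 (19 against 11.4) and Tas2r119 (15 against 9.14). Over the 21 autosomal deserts of at least 100 kb among them the median length was 181 kb and the median density 28.0 per Mb. Over all 1388 such deserts these medians were 319 kb and 20.4 per Mb.

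Against uniform placement at the mean density of all bins the regions were clustered, but less so around each desert's own mean. Over 8471 desert bins of 100 kb the variance of the count was 1.59 times its mean, where uniform (Poisson) placement gives 1. On the autosomes it was 1.38 times. Measured around each desert's own mean, the dispersion was 1.05 in bins of 50 kb, 1.08 in bins of 100 kb and 1.35 in bins of 500 kb. Much of the excess over 1 thus went with densities that differ between deserts. No such ratio is given here for all desert peaks of either long list, so clustering cannot be called particular to the shared regions. Bins without a region made up 19.7% of autosomal bins, against 15.2% under uniform placement at the mean of these bins. Of the 7281 autosomal bins, 41 held 8 or more, against 5.47. The fullest bin held 17 regions. It lies between Zfp980 and Zfp987 on chromosome 4, in a cluster of zinc finger genes, over the pseudogene Znf41-ps and others, 5 pseudogenes in all. Next were a bin below Olfr161 (14), a bin between Zxdb and Spin4 on the X (14), a bin of T-cell receptor alpha segments (11) and a further bin below Olfr161 (11).

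Neighbouring regions exceeded uniform placement at distances under 1 kb. The median distance between neighbours in a desert was 27.7 kb (95% interval 27.0 to 28.4), against 28.3 kb for uniform placement at each desert's own density, so the typical spacing did not differ beyond that interval. Of 15034 distances, 675 were at most 1 kb, against 405 under uniform placement. The excess was 2.44-fold at 0.25 to 0.5 kb and again 2.44-fold at 0.5 to 0.75 kb, and 1.73-fold at 0.75 to 1 kb. Under 0.25 kb, less than the median width of a peak, there were 8 pairs against 103. From 2 to 5 kb there were fewer pairs than uniform placement gives (794 against 1086), and in each class from 5 kb up the ratio lay between 0.949 and 1.09. Of the 675 close pairs, 223 (33.0%) lay on 1 Bmal1 CKO 2 peak, as at Htr7, and are separate regions in Control 1 alone.

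**Figure D5:**
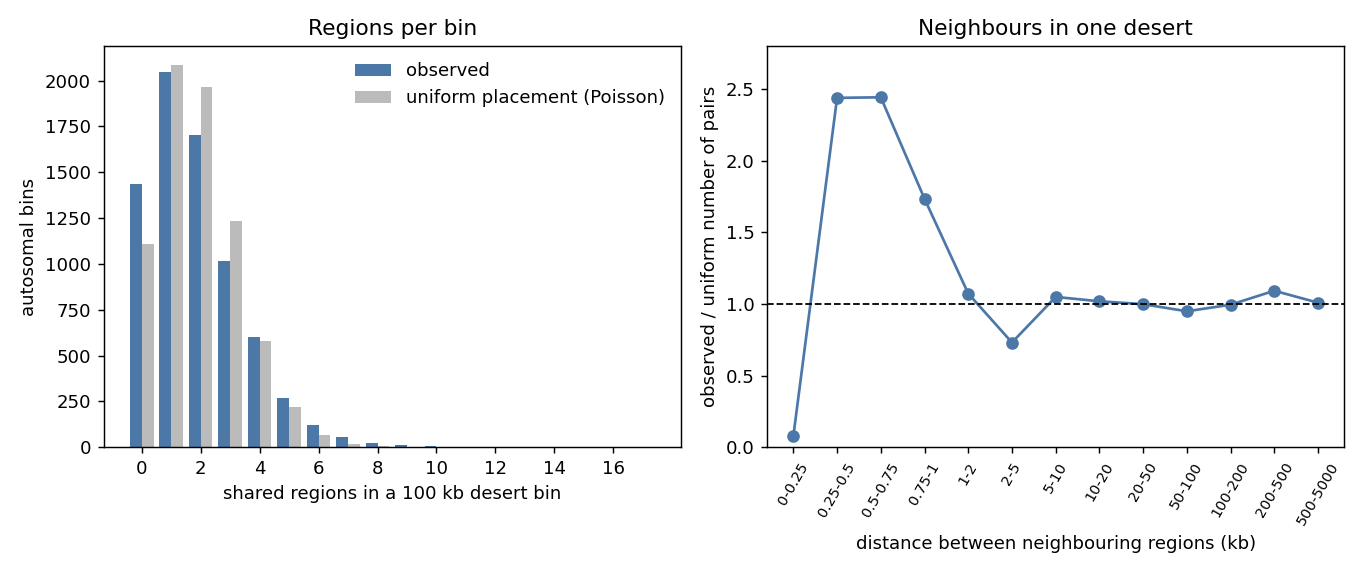
Left, number of autosomal desert bins of 100 kb (vertical axis) by the shared regions they hold (horizontal axis), observed and under uniform placement at the mean of these bins. Right, ratio of observed to uniform numbers of neighbouring pairs (vertical axis) by their distance in kb (horizontal axis), with a dashed line at 1. Observed bins exceed the uniform ones at 0, at 4 to 11, at 14 and at 17 regions, and neighbouring pairs exceed the uniform number 2.44-fold at 0.25 to 0.75 kb.

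Runs of 4 or more regions with gaps of at most 5 kb numbered 27, and the longest held 6. The tightest of these lies between Sall3 and Galr1 on chromosome 18, 224 to 231 kb from Galr1, with 6 regions in 7.40 kb. Its folds were 2.15 to 3.22 in Bmal1 CKO 2 and 2.20 to 3.12 in Control 1, low in both libraries. The next, between Snx7 and Dpyd on chromosome 3 (chr3:118425889-118435042), holds 6 regions in 9.15 kb, with folds of 2.55 to 4.24 in Bmal1 CKO 2 and 3.15 to 5.83 in Control 1. The run below Olfr161 had 2.78 to 4.62 in Bmal1 CKO 2 and 3.30 to 5.42 in Control 1. That between Zfp980 and Zfp987 reached higher, with 3.60 to 5.59 in Bmal1 CKO 2 and 2.91 to 9.77 in Control 1.

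The run between Snx7 and Dpyd contains Mir137, the gene of a microRNA of neurons whose mature forms are printed above. The region on its hairpin (chr3:118433646-118434063) had folds of 2.84 in Bmal1 CKO 2, from 23 stacked fragments, and 3.46 in Control 1, from 21. Its Control 1 summit lay 54 bases from the hairpin, and it is 128 kb from Dpyd, which encodes a pyrimidine-degrading enzyme. Of 153 desert hairpins, 3 were overlapped by a region, where uniform placement at each chromosome's density gives 1.17, and 21 had one within 5 kb, where it gives 26.1. The other overlapped hairpins were Mir5099, with folds of 3.95 in Bmal1 CKO 2 and 6.28 in Control 1, and Mir8099-2, with 3.49 in Bmal1 CKO 2 and 3.25 in Control 1.

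Most regions lay in no annotated gene of any kind (13817, or 80.4%). Long non-coding RNA genes held 13.1% of the summits and make up 10.3% of desert length, a ratio of 1.27. The share of all desert peaks in these genes was 13.1% in Bmal1 CKO 2 and 14.3% in Control 1 as well. Pseudogenes held 934 summits, 5.44% against 1.26% of the length, or 4.31-fold. The share of all desert peaks on pseudogenes was 3.96% in Bmal1 CKO 2 and 3.82% in Control 1, so it was higher among the shared regions than in either list. Regions on pseudogenes had median folds of 3.37 in Bmal1 CKO 2 and 4.26 in Control 1, against 3.22 and 4.03 outside pseudogenes in the same libraries. Of 109 ribosomal protein pseudogenes in deserts, 30 held a region, and of 79 chemosensory receptor pseudogenes, 9 did (27.5% and 11.4%), beside 710 of all 3386 (21.0%). Because a pseudogene resembles its parent gene, reads of one can be placed on the other, and these values are uncertain for that reason.

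The antigen receptor segments were the densest class. V segments, each with its own promoter, held 33 summits, 0.192% of regions against 0.0166% of desert length, an 11.6-fold excess. The share of all desert peaks on V segments was 0.151% in Bmal1 CKO 2 and 0.122% in Control 1. Much of the excess over length was thus found in each whole list too. Of 351 V segments in deserts 32 held a region, with median folds of 3.95 in Bmal1 CKO 2 and 4.04 in Control 1. Many V segments are close copies of each other, so their counts are uncertain. The 144 V segment pseudogenes held none, where uniform placement gives 1.03. The 919 small RNA genes other than microRNAs held none either, where it gives 1.78, so both counts are too small to read.

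Promoters of desert genes were overlapped more often than their length gives. Of 3370 promoter windows in deserts, 171 were overlapped by a region, 5.07% against 1.11% under uniform placement. The share overlapped by all desert peaks of each long list is not given here, so this excess cannot be called particular to the shared regions. These windows had a mean G and C content of 54.3 ± 6.86% (SD, n = 171), against 45.0 ± 6.52% in the other desert windows (SD, n = 3199). CACGTG, which reads the same on both strands, occurred in 15 of the 171 (8.77%), in 5.38% of the other desert windows and in 7.15% of all 32815 promoter windows. The windows compared differ in base composition, whose part in these shares was not tested. Of 82 windows that held the Control 1 summit of a region, 8 held CACGTG. No match says only that these letters are not in the window.

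Of the windows printed above, the region at 4930442J19Rik had folds of 5.71 in Bmal1 CKO 2 and 6.73 in Control 1, with its Control 1 summit at position 221 of the window, counted from 1 at the 5′ end. LOC115487949 had 4.56 in Bmal1 CKO 2 and 5.84 in Control 1, and its window is 67% G and C. Gm41007, in the same desert beside Nr2f1 that holds the highest Control 1 fold, had 3.81 in Bmal1 CKO 2 and 5.83 in Control 1. At Firre, with 3.51 in Bmal1 CKO 2 and 4.93 in Control 1, CACGTG starts at position 180 and the Control 1 summit is at position 254. At Jpx, with 3.67 in Bmal1 CKO 2 and 4.48 in Control 1, it starts at position 61 and that summit is at 156, while the Bmal1 CKO 2 summit lies outside the printed window. At Gm46398, with 4.24 in Bmal1 CKO 2 and 4.38 in Control 1, it starts at 102 and that summit is at 80.

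Between genotypes, only the share of each library's peaks that lies in deserts can be compared over all 6 libraries, a comparison added after the data were seen. It was 24.9%, 25.9% and 31.6% in Bmal1 CKO 1 to 3, and 23.8%, 35.4% and 32.0% in Control 1 to 3. The groups overlapped. The share averaged 27.5 ± 3.62% in Bmal1 CKO and 30.4 ± 5.93% in Control (SD, n = 3 each), a difference of -2.94 percentage points (two-sided exact permutation test, p = 0.60, where the smallest p possible is 0.10). Without Control 1 it was -6.22 and without Control 2 it was -0.454, so single libraries set its size. Nothing says that the libraries of a group came from separate animals, so the spread may be technical. The short lists seldom added desert places of their own: 83.5% to 93.8% of their desert peaks overlapped peaks of both long lists. The rule leaves such regions out. They were 329 Control 1 peaks, with higher median folds of 4.83 in Bmal1 CKO 2 and 5.58 in Control 1, against 3.22 and 4.04 in the same libraries for the 17177.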

How the data were processed

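BMAL1 ChIP-seq of retina was measured in 6 libraries, with 1 deposited peak list each. Trim Galore, Bowtie2, MACS2 and build mm10 are named per the submitters' processing notes, while versions, parameters and any input library are not stated there. The authors deposited, per peak, a fold enrichment (a ratio over that library's background), a −log10 p-value and a −log10 q-value, each at the summit. The deposited score is the −log10 q-value multiplied by 10, without decimals. Fragments and background at each summit were solved from fold and p-value, assuming a pseudocount of 1 and a Poisson p-value (tolerance 0.01 in −log10 p). This was tested on simulated data. The lists give no read totals, and the lowest background of a library (0.560 to 5.83 fragments over the 6) is taken as its relative depth.

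Gene positions came from the RefSeq table of GRCm38.p6. Deserts are all bases at least 50 kb outside every protein-coding gene, between the first and last summit of the long lists on a chromosome, since chromosome lengths were not in the tables used. Uniform placement was computed in closed form. Counts per 100 kb bin were Poisson at the mean of the bins. Distances followed the exact law for points placed uniformly, with each desert's own length and number of regions. Intervals of densities are exact Poisson, and those of the density ratio and of the median distance are binomial, all at 95% and for counting error only. Regions of 1 library are not replicates, and no p-value was computed over them. The only tests were exact permutations of the share of peaks in deserts, over the 6 libraries or with some left out. Sequence around the summits and repeat masking were planned and are not analysed here, since no genome sequence was used. Shared replicate numbers only name the libraries.

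Named genes flank the 10 deserts with most regions, the 10 densest and the 5 sparsest, lie nearest the 10 regions with the highest fold in each long list and the 5 fullest bins, or lead the gene lists. Exceptions are stated, and 1 of the deserts with most regions is not reported here. The regions, gene lists and rules were chosen with earlier results of these data known. Python 3.11.15, numpy 2.4.6, pandas 2.3.3 and scipy 1.17.1 were used.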

Additional observations from a re-analysis of the deposited data

How the results depend on the processing

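In each alternative run, deserts held fewer shared regions per Mb than other sequence and counts per bin varied more than uniform placement gives, but sizes moved. Of 100 alternative values, 43 moved (the variance-to-mean ratio, which carries no error here, counted as moved at any change). The number of regions moved beyond 1.5 times the 17177 when every annotated gene bounds a desert (5906), at a −log10 q of at least 5 in both long lists (3506) and at a fold of at least 3 in both (10797). The last pair also moved the density, to 3.58 and 11.0 per Mb. The density ratio, 0.539 as reported, was 0.577 with deserts 20 kb from genes, 0.514 at 100 kb, 0.438 with every annotated gene, 0.559 with an overlap of 50% of both peaks, 0.589 with summits within 100 bp, 0.387 at the q limit, 0.669 at the fold limit, 0.526 with Bmal1 CKO 2 peaks as anchor, 0.550 with regions under 1 kb apart merged and 0.582 on autosomes only.

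The variance-to-mean ratio, 1.59 as reported, was 1.74 at 20 kb, 1.53 at 100 kb, 1.48 with every annotated gene, 1.46 with 50% overlap, 1.42 with close summits, 1.45 at the q limit, 1.44 at the fold limit, 1.61 with Bmal1 CKO 2 as anchor, 1.75 where absence from the short lists was not required, 1.56 without terminal deserts, 1.44 over bins that hold a peak, 1.49 after merging, 1.38 on autosomes and 1.58 without antigen receptor deserts. It was 1.34 in bins of 50 kb and 3.05 in bins of 500 kb, and 1.59 to 1.66 when 1 of the 4 short lists was not used. The median distance, 27.7 kb as reported, was 23.7 kb at 20 kb, 31.5 at 100 kb, 33.8 with 50% overlap, 39.8 with close summits, 74.4 at the q limit (82.4 under uniform placement), 40.9 at the fold limit, 27.0 where absence was not required, 30.1 over bins that hold a peak and 29.8 after merging. It lay above the uniform value, not below it, after merging (29.7) and where every annotated gene bounds a desert (27.2 against 27.1), so the direction of that small difference is not stable. The cause of these changes was not tested, beyond fewer regions or less sequence entering. Autosomes alone and the antigen receptor deserts were alternatives chosen after seeing the data. The rule needs Control 1 and Bmal1 CKO 2, so leaving out either gives no region.

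For the share of peaks in deserts, libraries were also paired by replicate number and the signs of their differences permuted (8 assignments). The difference was the same -2.94 points (exact permutation p = 0.75, smallest possible 0.25). Replicate numbers only name the libraries, so this pairing is arbitrary. Leaving out 1 library moved the difference to between -6.22 and -0.454 points. Without both long lists it was -5.44 points (exact permutation p = 0.333, the smallest possible).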
